A study of Mus musculus with 12 samples.

Results

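The 10 genes described here are imprinted genes of the mouse: H19, Igf2, Peg3, Mest, Plagl1, Grb10, Phlda2, Sgce, Nnat and Snrpn. They were chosen by symbol, and all 10 were found among the 24098 genes of the deposited table. All 10 also reached 1 FPKM in at least 1 library, as did 14178 genes of the table. FPKM is the number of sequenced fragments of a gene scaled to the length of the transcript and to the mapped fragments of the library, so it can be compared between genes as a level per length.

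An imprinted gene is expressed mainly from the copy inherited from a single parent. This goes back to a methylation mark set in the egg or the sperm, which can lie on the expressed or on the silent copy. Many of these genes act on growth of the embryo and the placenta, paternally expressed genes such as Igf2 tending to promote it and maternally expressed genes such as H19, Grb10 and Phlda2 tending to restrain it. They lie in clusters, in which a control region that is methylated on 1 parental copy sets the state of several genes at once. Of the genes listed, 7 are known as paternally expressed (Igf2, Peg3, Mest, Plagl1, Sgce, Nnat and Snrpn) and 3 as maternally expressed (H19, Phlda2 and, outside neurons, Grb10). The FPKM of a gene sums both parental copies, so the values below do not say from which copy a transcript came.

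Messenger RNA of 12 conditions was sequenced, with 1 library for each. D0 was mouse embryonic fibroblasts (MEFs) in which a GFP cassette follows the Oct4 gene. D3, D6, D9, D12 and D16 were the same kind of cells 3, 6, 9, 12 and 16 days after infection with pMXs retroviruses carrying Oct4, Sox2, Klf4 and c-Myc (OSKM). D3 was not sorted. The sort of days 6 and 9 used Thy-1, which fibroblasts carry on their surface, and gave Thy-1- (D6T-, D9T-) and Thy-1+ (D6T+, D9T+) fractions. The sort of days 12 and 16 used SSEA-1, a sugar antigen found on pluripotent cells, and gave SSEA-1+ (D12S+, D16S+) and SSEA-1- (D12S-, D16S-) fractions. The study takes the Thy-1- and SSEA-1+ fractions as cells on the way to pluripotency and the others as cells that were not. Induced pluripotent stem cells (iPSCs), whose labels name MEFs as their source, and the embryonic stem cell line ES-D3 (mESCs) were the end points. How many iPSC lines or clones entered the library, and at which passage, was not given in the sources used here, and the mESCs did not derive from the MEFs.

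No condition had a replicate, so no test could be made, and the spread between samples of 1 condition is unknown. The only error attached to a value is the interval that cuffdiff, the program behind the FPKM, gave to each one, which comes from a model and not from repeated samples. Its median half-width was 108% of the FPKM over the 120 values of the 10 genes, and it reached 0 in 90 of them. For each of the 10 genes the intervals overlapped in all 66 pairs of libraries. By this measure not even the highest and the lowest library of a gene were set apart. These interval values were taken for the 10 genes only, so whether they differ from those of other genes is not known here. Relative depth, read from the steps of low values, ranged from 0.967 times that of D0 in D9T+ to 1.56 times in D6T-. The fibroblast markers summed to 7759 FPKM in D0 and to between 38.8 and 54.9 in D16S+, iPSCs and mESCs, and the pluripotency markers to 2.17 in D0 and to between 3550 and 4807 in those libraries. In D16S- the fibroblast markers summed to 516 FPKM and the pluripotency markers to 135. The fibroblasts and the pluripotent cells thus held their defining markers, and D16S- held low levels of both sets.

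H19 and Igf2 are neighbours on chromosome 7, with 72625 bases between them. H19, a noncoding RNA whose exon holds the miR-675 hairpin, was annotated at chr7:149761434-149764048 and Igf2, an insulin-like growth factor of the fetus, at chr7:149836673-149852721, both on the minus strand of NCBIM37 (mm9), the build of all gene positions given here. The region between them that controls both genes binds CTCF on the maternal copy, where the shared enhancers then act on H19. On the paternal copy it is methylated and the enhancers act on Igf2. To show this region, the 5000 bases before the start of H19 were searched on both strands for the core letters of the CTCF sites known there: CCGC, any 2 letters, then GG, any letter and GGCAG. The search found 4 matches, at 2166, 2621, 3647 and 3891 bases before the start, all on the strand of H19. They are given 5′ to 3′ on that strand with the matched letters in capitals, from the NCBIM37 genome.
Site 1, chr7:149766208-149766233: acgatgCCGCGTGGTGGCAGtacaat
Site 2, chr7:149766663-149766688: atgctaCCGCGCGGTGGCAGcatact
Site 3, chr7:149767689-149767714: gggttgCCGCACGGCGGCAGtgaagt
Site 4, chr7:149767933-149767958: gagttgCCGCGTGGTGGCAGcaaaat
Of 28376 consecutive windows of the same length on chromosome 7, 52 (0.183%) held at least 1 match and 1 (0.00352%) held at least 4. The window with at least 4 was the one that holds the sites printed here. The pattern was taken from sites known in this region, so these shares are no independent background. A match is a description of the sequence, and no binding or methylation was measured in these libraries.

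The mature miRNAs encoded in the H19 exon are shown because they are a known product of its transcript, though neither the hairpin nor its processing is read from the FPKM of H19. Seeds (bases 2 to 8) are in capitals, and the sequences are those of RefSeq, on GRCm38.p6.
mmu-miR-675-5p: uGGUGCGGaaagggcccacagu
mmu-miR-675-3p: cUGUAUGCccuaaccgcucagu
The arms share no seed. Mir675 was listed at 0 FPKM in every library, as were Mir483 in an Igf2 intron and Mir335 in a Mest intron, in libraries made from polyadenylated RNA.

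H19 had the highest FPKM of the 10 genes in most libraries. It stood at 454 FPKM in D0, 37.5 in D3, 27.0 in D6T- and 199 in D6T+. On day 9 it stood at 142 FPKM in D9T- and 169 in D9T+, and on day 12 at 355 in D12S+ and 307 in D12S-. On day 16 it was listed at 499 FPKM in D16S+ and 1152 in D16S-, and the end points were at 448 in iPSCs and 35.9 in mESCs. The lowest libraries were thus D6T-, mESCs and D3, and the highest was D16S-, at 42.6 times the level of D6T-. H19 alone held between 11.8% and 73.1% of the summed FPKM of the 10 genes. In bulk libraries such as these, a smaller share of cells that express a gene and less RNA per cell cannot be told apart.

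Igf2 followed the same course at a lower level. It stood at 83.5 FPKM in D0, 15.9 in D3, 5.13 in D6T- and 27.4 in D6T+. It stood at 22.0 FPKM in D9T-, 25.3 in D9T+, 52.2 in D12S+ and 46.7 in D12S-. On day 16 it was listed at 59.8 FPKM in D16S+ and 184 in D16S-, and the end points were at 192 in iPSCs and 22.3 in mESCs. The highest libraries were iPSCs and D16S-, and D6T- was the lowest, 37.4 times below iPSCs. The levels of H19 and Igf2 moved together: over the 12 libraries, log2(FPKM + 1) of both gave a Pearson r of 0.89 and a Spearman rho of 0.93, and r was 0.87 without D6T- and mESCs, the libraries farthest from the median of H19. Libraries of 1 time course are not independent, so this is a description. The ratio of H19 to Igf2 FPKM was between 5.27 and 8.36 in 9 libraries, and lower in D3 (2.35), iPSCs (2.34) and mESCs (1.61). iPSCs thus held Igf2 above D0 at an H19 level next to that of D0, and mESCs held little of either.

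**Figure D1:**
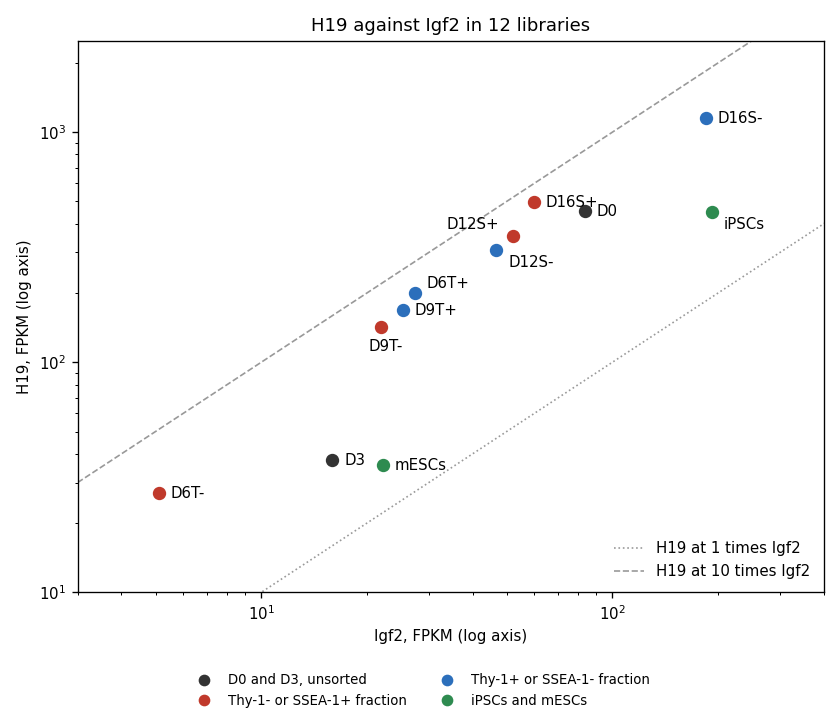
FPKM of H19 (y axis, log scale) against FPKM of Igf2 (x axis, log scale) in the 12 libraries, 1 point each, with lines where H19 is 1 and 10 times Igf2. D6T-, D3 and mESCs sit at the low end, D16S- at the high end (1152 and 184 FPKM), and iPSCs (448 and 192 FPKM) sit to the right of the other libraries of like H19 level.

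Some marker lists moved with these values in part of the libraries, and their part in them was not tested. The 8 fibroblast markers summed to 7759 FPKM in D0, 2117 in D3, 491 in D6T- and 3113 in D6T+. Of the 8, 7 were past 2-fold lower in D3 than in D0 and all 8 in D6T- than in D6T+. Later they did not follow H19: they summed to 516 FPKM in D16S-, where H19 was highest, 54.9 in iPSCs and 49.7 in mESCs. The 6 myogenic markers summed to 154 FPKM in D0, with Myog at 24.2 and Myh3 at 37.4, to 65.8 in D3 and to 10.0 in D6T-, and between 7.52 and 29.6 in the other libraries. Myf5 was near 0 in every library. The 6 trophoblast markers summed to between 1.45 and 2.93 FPKM up to day 6, to 49.3 in D16S-, 84.6 in D16S+, 47.2 in iPSCs and 33.8 in mESCs. Hand1 among them stood at 24.2 FPKM in D16S-, 10.7 in D16S+, 13.3 in iPSCs and 1.96 in mESCs, and Gata3 at 10.0 in iPSCs and 0.435 in mESCs. Others of the list ran the other way: Tfap2c stood at 65.7 FPKM in D16S+, 19.2 in D16S-, 19.04 in iPSCs and 26.9 in mESCs, and Eomes at 4.41, 1.23, 1.66 and 4.28. Cdx2 and Elf5 were at most at 2.71 and 1.11 FPKM. Of the macrophage markers, Cd68 was at 115 FPKM and Csf1r at 19.9 in D16S-, while Ptprc and Emr1 were near 0 in every library.

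Among the genes that restrain growth, Grb10 was lowest and Phlda2 highest in the end points. Over the 12 libraries their Pearson r was -0.65 and their Spearman rho -0.27, and r was -0.02 without iPSCs and mESCs, on which the negative value rests. Grb10, an adaptor that binds and dampens the insulin and IGF1 receptors, was annotated at chr11:11830511-11938686 on the minus strand. It stood at 61.6 FPKM in D0, 73.7 in D3, 111 in D6T-, 89.2 in D6T+, 155 in D9T- and 97.3 in D9T+. It then stood at 111 FPKM in D12S+, 149.9 in D12S-, 60.6 in D16S+, 141 in D16S-, 20.7 in iPSCs and 26.1 in mESCs. On the Thy-1 days the marker fraction taken as reprogramming was the higher of the pair, and on the SSEA-1 days it was the lower. The D16S+ level was next to that of D0, and which was higher depended on the scaling: the log2 difference was -0.02 as deposited and 0.39 with equal total FPKM.

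Phlda2, a small pleckstrin homology domain protein that limits growth of the placenta, was annotated at chr7:150687450-150688446 on the minus strand, 834729 bases beyond Igf2 and in the neighbouring Kcnq1 cluster. It was listed at 1.03 FPKM in D0, 2.68 in D3, 2.17 in D6T-, 2.13 in D6T+, 3.27 in D9T- and 1.13 in D9T+. From day 12 it stood at 12.7 FPKM in D12S+, 4.92 in D12S-, 30.3 in D16S+, 7.98 in D16S-, 43.2 in iPSCs and 58.4 in mESCs. From D9T- through D12S+ and D16S+ to iPSCs each library was higher than the one before, and mESCs were the highest, 56.8 times D0. Since the D0 value is close to the pseudocount of 1, the log2 difference between iPSCs and D0 was 4.45 with that pseudocount and 5.26 with 0.1.

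Plagl1, a zinc finger transcription factor that slows the cell cycle (chr10:12810497-12851500, plus strand), had the lowest median of the 10 genes, 2.59 FPKM, between 0.664 in D12S+ and 8.92 in iPSCs. D3 was its next highest library at 7.05 FPKM, against 2.77 in D0, and mESCs were at 1.92. D12S+, D16S+ (0.957), D16S- (1.66) and D12S- (1.75) were its lowest libraries.

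Peg3, a zinc finger protein of the fetus and placenta (chr7:6656603-6683132, minus strand), was highest late in the time course and low up to day 6 and in mESCs. It was between 4.99 and 7.09 FPKM in D0, D3, D6T-, D6T+ and D9T+, and 15.1 in D9T-. It stood at 35.2 FPKM in D12S+, 18.8 in D12S-, 28.2 in D16S+ and 32.8 in D16S-, and at 12.3 in iPSCs and 3.01 in mESCs. The late libraries were the highest in both fractions, and mESCs were the lowest of all 12.

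Mest, a hydrolase-like protein of mesoderm (chr6:30673547-30698457, plus strand), was low except in the SSEA-1+ fractions and the end points. D0 was at 5.05 FPKM, and D3 and the Thy-1 fractions were between 2.51 and 6.26. It stood at 10.0 FPKM in D12S+ and 2.40 in D12S-, at 20.2 in D16S+ and 5.20 in D16S-, and at 25.6 in iPSCs and 19.8 in mESCs. All 4 libraries that held the most Mest were also the 4 that held the most Phlda2. Exons of Mest and of Copg2 on the opposite strand overlap, and the sources disagree on whether the library kit kept the strand, so reads of the overlap cannot be told apart. The same holds for Igf2 and Igf2as, a noncoding RNA on its opposite strand that has no row of its own in the table. Copg2 was between 2.43 FPKM in D0 and 13.4 in D16S+. It stood at 4.81 FPKM in D12S+, 4.68 in D12S-, 4.25 in D16S-, 4.40 in iPSCs and 8.95 in mESCs.

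The Mest promoter is an imprinted control region, methylated on the maternal copy, and the zinc finger protein ZFP57 holds such methylation in the early embryo by binding TGCCGC. It is shown from RefSeq (GRCm38.p6, chr6:30737800-30738099, plus strand, 250 bases before to 50 after a start), with the matches to TGCCGC, here both on the other strand and so read as its reverse complement, in capitals.
Mest promoter: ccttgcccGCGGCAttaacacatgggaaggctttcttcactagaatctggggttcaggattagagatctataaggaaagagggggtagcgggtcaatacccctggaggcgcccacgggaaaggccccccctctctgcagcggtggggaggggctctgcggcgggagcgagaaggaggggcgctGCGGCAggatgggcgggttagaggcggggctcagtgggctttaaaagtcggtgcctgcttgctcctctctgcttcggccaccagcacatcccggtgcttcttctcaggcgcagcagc
It held 2 matches and 17 CG pairs, against a median of 7 CG pairs in 32851 promoters. Promoters were matched for 8 of the 10 genes (17 entries, all but H19 and Sgce). On either strand, TGCCGC was found in promoters of 6 of the 8 genes and in 11.6% of all promoters, counted per entry, where 7 of the 17 held it. The Mest entries that begin at chr6:30737800 and chr6:30737803 overlap and were counted separately. The share of all promoters was not matched for CG pairs, which the motif contains. GGGGCCCC, the known motif of the PLAGL1 protein, was found in 1 of the 8, Peg3, and in 1.08% of all promoters. Zfp57 itself was at 14.7 FPKM in D0, 92.1 in D16S+, 25.9 in D16S-, 270.4 in iPSCs and 110.0 in mESCs.

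The remaining genes are best known from nerve and muscle. Sgce, the epsilon-sarcoglycan of the muscle cell membrane (chr6:4624350-4697204, minus strand), was highest in D0 at 20.1 FPKM, followed by D6T+ at 13.8. The other libraries were between 4.50 in D6T- and 9.59 in D9T+, with iPSCs at 4.56 and mESCs at 6.88. D0 was thus 4.47 times the lowest library, the narrowest range of the 10 genes.

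Snrpn, a spliceosome protein made in neurons and embryonic stem cells (chr7:67127388-67285105, minus strand), was lowest in D0. It stood at 5.93 FPKM in D0, 24.2 in D3, 51.7 in D6T-, 18.6 in D6T+, 42.9 in D9T- and 28.9 in D9T+. It stood at 51.6 FPKM in D12S+, 35.1 in D12S-, 55.4 in D16S+, 37.2 in D16S-, 57.0 in iPSCs and 50.3 in mESCs. D6T- was already within the range of the end points, and on all 4 sorted days the fraction taken as reprogramming was the higher of the pair. iPSCs were next to D16S+, with a log2 difference of 0.04 as deposited and -0.13 with equal total FPKM. Sgce and Snrpn ran opposite over the 12 libraries, with a Pearson r of -0.89 and a Spearman rho of -0.80.

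Nnat, a small membrane protein of the endoplasmic reticulum in neurons (chr2:157385814-157388258, plus strand), began at 23.2 FPKM in D0 and was lowest on day 16. It was between 11.8 and 16.4 FPKM in D3 and the Thy-1 fractions, at 10.3 in D12S+ and 8.41 in D12S-, and at 2.92 in D16S+ and 4.70 in D16S-. iPSCs were the highest library at 38.1 FPKM, and mESCs were at 9.99. Blcap, which holds Nnat in its intron on the other strand, stood at 62.3 FPKM in D0, 13.3 in D16S+ and 17.7 in iPSCs, and so was not high in iPSCs.

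**Figure D2:**
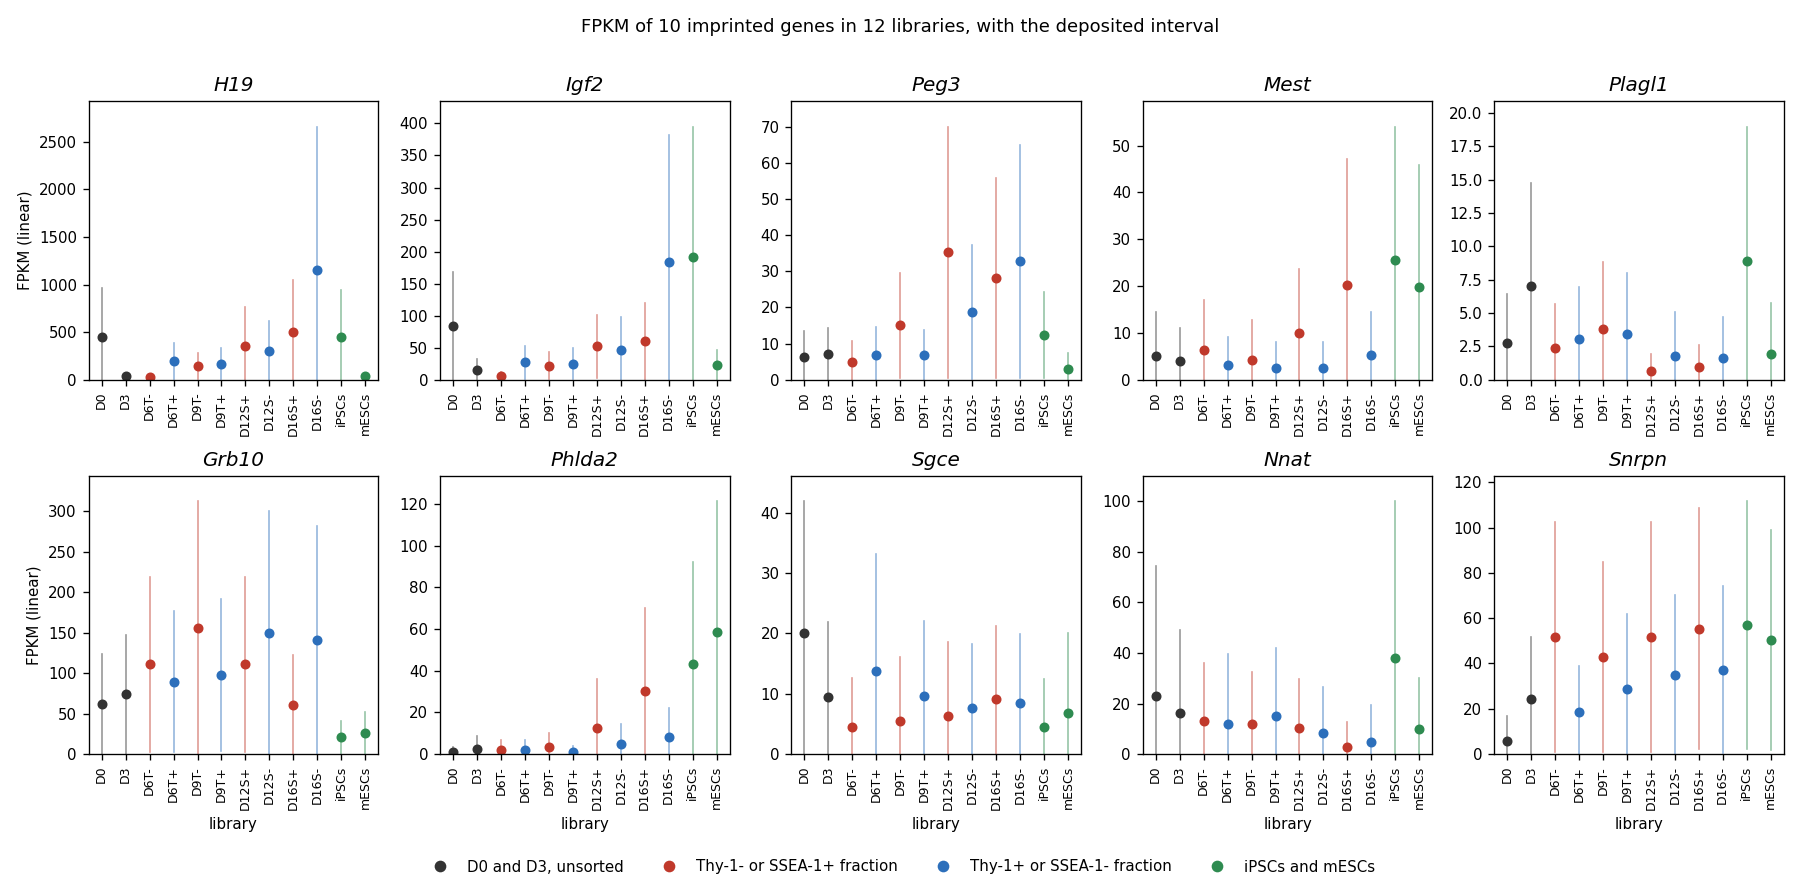
FPKM (y axis, linear, a scale of its own per gene) of the 10 imprinted genes in the 12 libraries (x axis), with points for the values and thin lines for the interval deposited with each. H19 is highest in D16S- (1152 FPKM), Igf2, Mest, Plagl1, Nnat and Snrpn are highest in iPSCs, and the intervals overlap between all libraries of every gene.

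To follow the genes through the time course, libraries were compared by the difference in log2(FPKM + 1), and genes past a fixed fold on that scale were counted beside the share of all 14178 kept genes past it. The fold was 2 between neighbouring libraries and 4 between end points, except where said. Several comparisons share D0 or another library, so their counts are not independent.

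The first days of OSKM expression were marked by lower H19 and Igf2. Between D0 and D3, 3 of the 10 genes were lower (H19, Igf2 and Sgce, with log2 differences of -3.56, -2.32 and -1.01), where 8.67% of all genes were. A further 2 were higher (Snrpn by 1.86 and Plagl1 by 1.09), where 5.76% of all genes were. H19 was 12.1 times and Igf2 5.24 times lower in D3 than in D0 in FPKM. With each library scaled to the same total FPKM, 2 were lower and 2 higher. With a pseudocount of 0.1 Phlda2 was also higher, by 1.30.

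On day 6 H19, Igf2 and Sgce were low in the Thy-1- fraction. In D6T- against D6T+, these 3 genes were lower (H19 by -2.84, Igf2 by -2.21 and Sgce by -1.43), where 9.47% of all genes were, and Snrpn was higher by 1.43, where 2.93% were. By day 9 H19 and Igf2 differed little between the fractions, with log2 differences of -0.25 and -0.19. There none of the 10 genes was lower in D9T- past 2-fold, where 6.45% of all genes were, and 2 were higher (Peg3 by 1.04 and Phlda2 by 1.00), where 1.81% were. Both were close to the threshold, and with libraries scaled by the median of ratios 1 of them passed.

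Between the SSEA-1 fractions, Mest and Phlda2 were the genes higher past 2-fold in SSEA-1+ cells on days 12 and 16. In D12S+ against D12S-, both were higher (Mest by 1.69 and Phlda2 by 1.22), where 4.79% of all genes were, and none of the 10 was lower, where 3.03% were. With a pseudocount of 0.1 Plagl1 was lower, by -1.28. In D16S+ against D16S-, both were again higher (Mest by 1.77 and Phlda2 by 1.80), where 11.8% of all genes were. The 3 lower genes of day 16 were Igf2 (-1.61), H19 (-1.20) and Grb10 (-1.20), where 15.2% of all genes were. H19 and Igf2 were thus lower in the fraction taken as reprogramming on days 6 and 16 and between -0.25 and 0.21 apart on days 9 and 12.

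**Figure D3:**
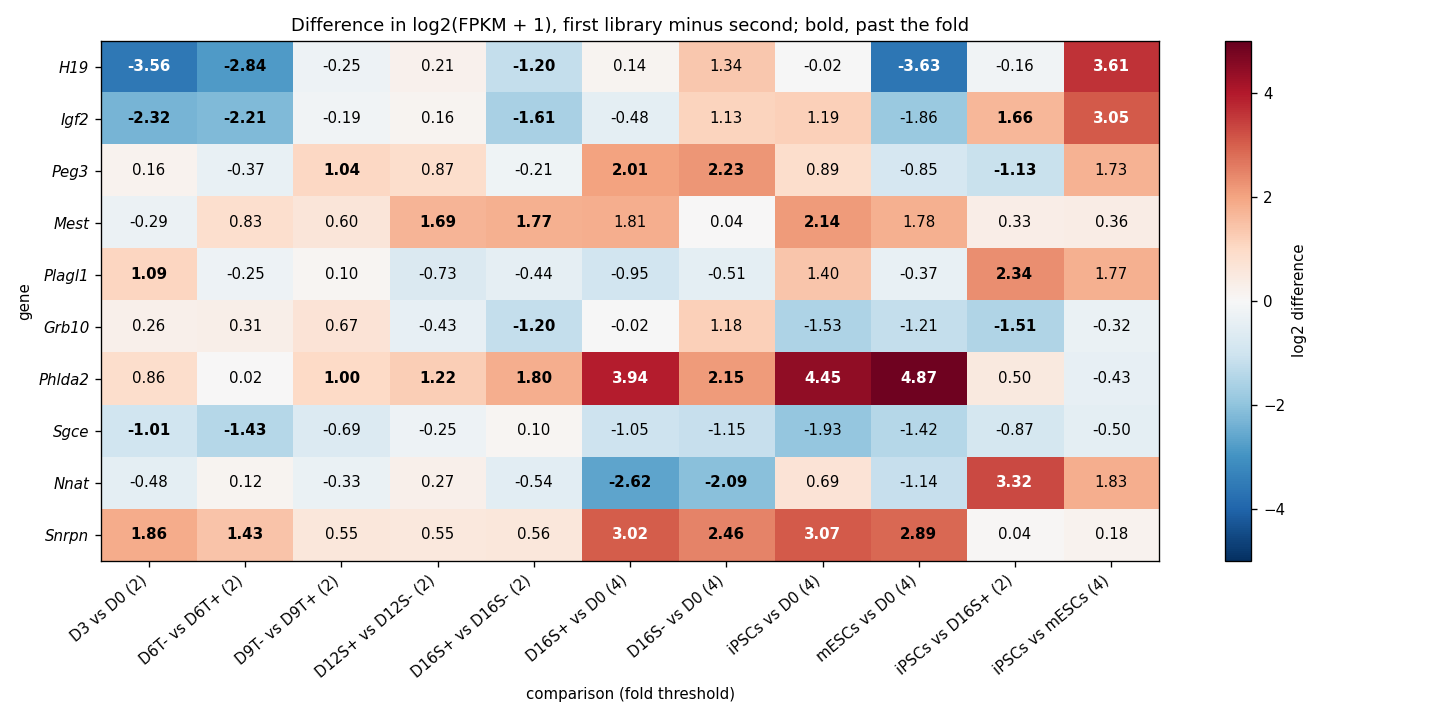
Difference in log2(FPKM + 1) of each of the 10 genes (rows) in 11 comparisons (columns), the first library minus the second, as colour and as the value in each cell. The fold threshold stands in brackets after each comparison, and bold values are past it: Phlda2 and Snrpn are high against D0 at day 16 and in both end points, and H19 and Igf2 are the 2 bold values between iPSCs and mESCs.

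Phlda2 and Snrpn were past 4-fold above D0 in D16S+, D16S-, iPSCs and mESCs alike, comparisons that share D0. In D16S+, 3 of the 10 genes were higher than in D0 (Phlda2 by 3.94, Snrpn by 3.02 and Peg3 by 2.01), where 7.05% of all genes were, and Nnat was lower by -2.62, where 7.96% were. In D16S-, 3 were higher (Snrpn by 2.46, Peg3 by 2.23 and Phlda2 by 2.15), where 5.25% of all genes were, and Nnat was lower by -2.09, where 2.95% were. With equal total FPKM that of Nnat was -1.80, short of 4-fold, and none was lower. H19 and Igf2 were above D0 in D16S- by 1.34 and 1.13, short of 4-fold.

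iPSCs held 3 of the 10 genes past 4-fold above D0 (Phlda2 by 4.45, Snrpn by 3.07 and Mest by 2.14), where 6.19% of all genes were. None was lower past 4-fold, where 9.2% of all genes were, and Sgce was nearest with -1.93. With a pseudocount of 0.1 Sgce was at -2.12 and so past 4-fold. The H19 level of iPSCs was next to that of D0, with a log2 difference of -0.02 as deposited and 0.22 with equal total FPKM. Igf2 was above D0 by 1.19, short of 4-fold. In mESCs, 2 were higher than in D0 (Phlda2 by 4.87 and Snrpn by 2.89), where 7.1% of all genes were, and H19 was lower by -3.63, where 9.63% were.

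From D16S+ to iPSCs, 5 of the 10 genes were past 2-fold. Nnat (by 3.32), Plagl1 (by 2.34) and Igf2 (by 1.66) were higher in iPSCs, where 4.38% of all genes were. Grb10 (by -1.51) and Peg3 (by -1.13) were lower, where 7.77% were. With equal total FPKM 3 genes were lower in place of 2. Nnat was 13.1 times higher in iPSCs than in D16S+ in FPKM, and H19 differed by -0.16.

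Between iPSCs and mESCs, the pluripotent cells of the set, H19 and Igf2 stood farthest apart of the 10 genes. H19 was 12.5 times and Igf2 8.60 times higher in iPSCs in FPKM, with log2 differences of 3.61 and 3.05, so that 2 of the 10 genes were past 4-fold higher, where 1.23% of all genes were. None was past 4-fold lower, where 0.952% were. At 2-fold, 5 were higher in iPSCs, with Nnat (1.83), Plagl1 (1.77) and Peg3 (1.73) beside H19 and Igf2, where 6.79% of all genes were, and none was lower, where 7.41% were. The median log2 difference of the 10 genes was 1.05, and that of all kept genes was -0.01. Mest, Snrpn, Grb10, Phlda2 and Sgce were within 2-fold, between -0.50 for Sgce and 0.36 for Mest. The genes higher in iPSCs include both the maternally expressed H19 and the paternally expressed Igf2.

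**Figure D4:**
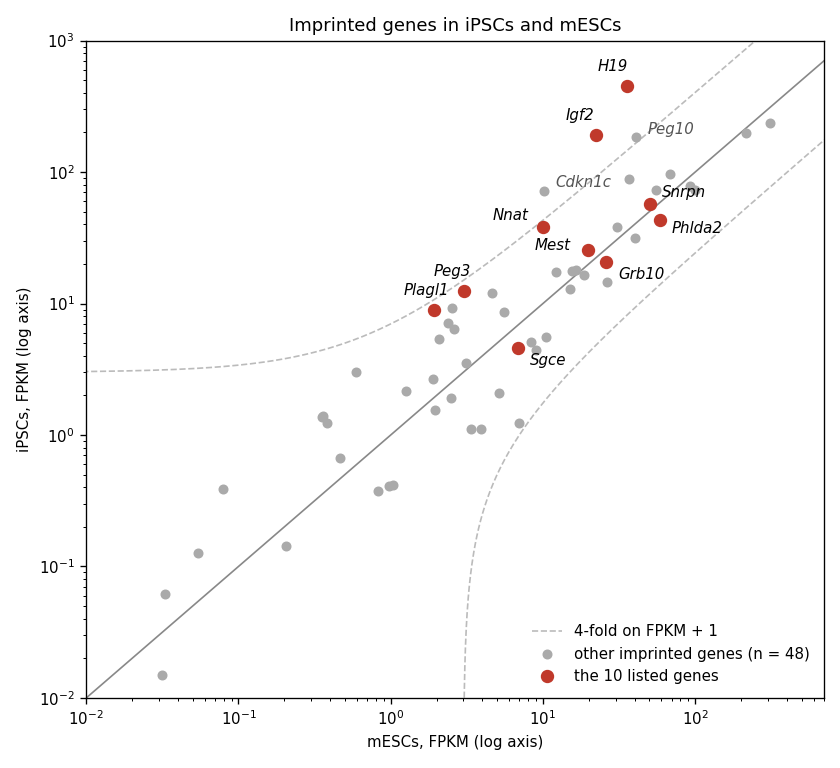
FPKM in iPSCs (y axis, log scale) against FPKM in mESCs (x axis, log scale), with the 10 imprinted genes in red. The 48 genes in grey are cluster neighbours and other imprinted genes. The diagonal marks equal levels, and dashed lines mark 4-fold on FPKM + 1. H19, Igf2, Cdkn1c and Peg10 lie above the upper dashed line and no gene lies below the lower one.

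The clusters around the 10 genes were examined in 34 neighbours, of which 33 were in the table and 23 reached 1 FPKM. In the Kcnq1 cluster beside H19 and Igf2, Cdkn1c, a maternally expressed inhibitor of cyclin-dependent kinases, ran like them in part of the libraries. It stood at 53.9 FPKM in D0, 38.7 in D3, 5.04 in D6T-, 18.2 in D6T+, 11.0 in D9T- and 13.9 in D9T+. It stood at 25.5 FPKM in D12S+, 24.7 in D12S-, 21.5 in D16S+, 64.7 in D16S-, 72.3 in iPSCs and 10.2 in mESCs. Like H19 and Igf2 it was lowest in D6T- and high in D16S- and iPSCs, but its D3 level was close to that of D0. Cdkn1c was also lower in D16S+ than in D12S+, where H19 and Igf2 were higher. Phlda2, of the same cluster, was low in D0 and high in mESCs. Ascl2, a trophoblast transcription factor, was at most at 2.55 FPKM in the time course and at 8.68 in iPSCs and 5.52 in mESCs. Osbpl5, a lipid transfer protein, was at 69.9 FPKM in D0, 3.61 in D16S+ and 2.07 in mESCs. Slc22a18, a transporter, was between 1.80 FPKM in D0 and 12.8 in D16S-. Cd81, Tssc4 and Nap1l4 were between 30.7 and 827 FPKM in every library.

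In the cluster of Sgce, its neighbour Peg10 went another way. Peg10, a retrotransposon-derived gene needed by the placenta, shares a control region with Sgce and is, like it, paternally expressed. It stood at 4.56 FPKM in D0, 3.32 in D6T-, 24.3 in D9T-, 33.3 in D12S+, 42.5 in D16S+, 65.7 in D16S-, 184.6 in iPSCs and 41.0 in mESCs, while Sgce was highest in D0. Tfpi2, an inhibitor of serine proteases, was at 11.7 FPKM in D0 and at 0.0619 in iPSCs, and Pon2 and Pon3, paraoxonases, were at 27.8 and 9.30 in D0 and at 6.42 and 0.411 in iPSCs. Ppp1r9a was between 0.117 FPKM in D0 and 3.67 in D16S+, and Casd1 between 0.467 and 1.69.

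In the cluster of Snrpn, Ndn, a melanoma antigen family protein of neurons, ran opposite to it. Ndn stood at 103.1 FPKM in D0, 71.9 in D3, 30.8 in D6T-, 64.6 in D6T+, 6.43 in D16S+, 16.0 in D16S-, 5.60 in iPSCs and 10.4 in mESCs. Snurf, which shares its transcript with Snrpn, was between 0.827 FPKM in D0 and 3.55 in D16S+, and how reads of the shared exons were split between the rows was not given in the sources used here. Peg12 was between 1.00 and 11.3 FPKM, Atp10a between 0.377 and 5.15, Ube3a between 1.27 and 3.99, and Mkrn3 between 0.593 and 2.49. In the cluster of Grb10, Cobl, an actin nucleator, was at 0.604 FPKM in D0 and 25.5 in D3, and Ddc, which makes dopamine and serotonin from their precursors, at 0.407 and 6.27, while Grb10 was at 61.6 and 73.7. Some neighbours thus shared an extreme library, as Cobl and Ddc did D0, and others such as Snrpn and Ndn had it at opposite ends.

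**Figure D5:**
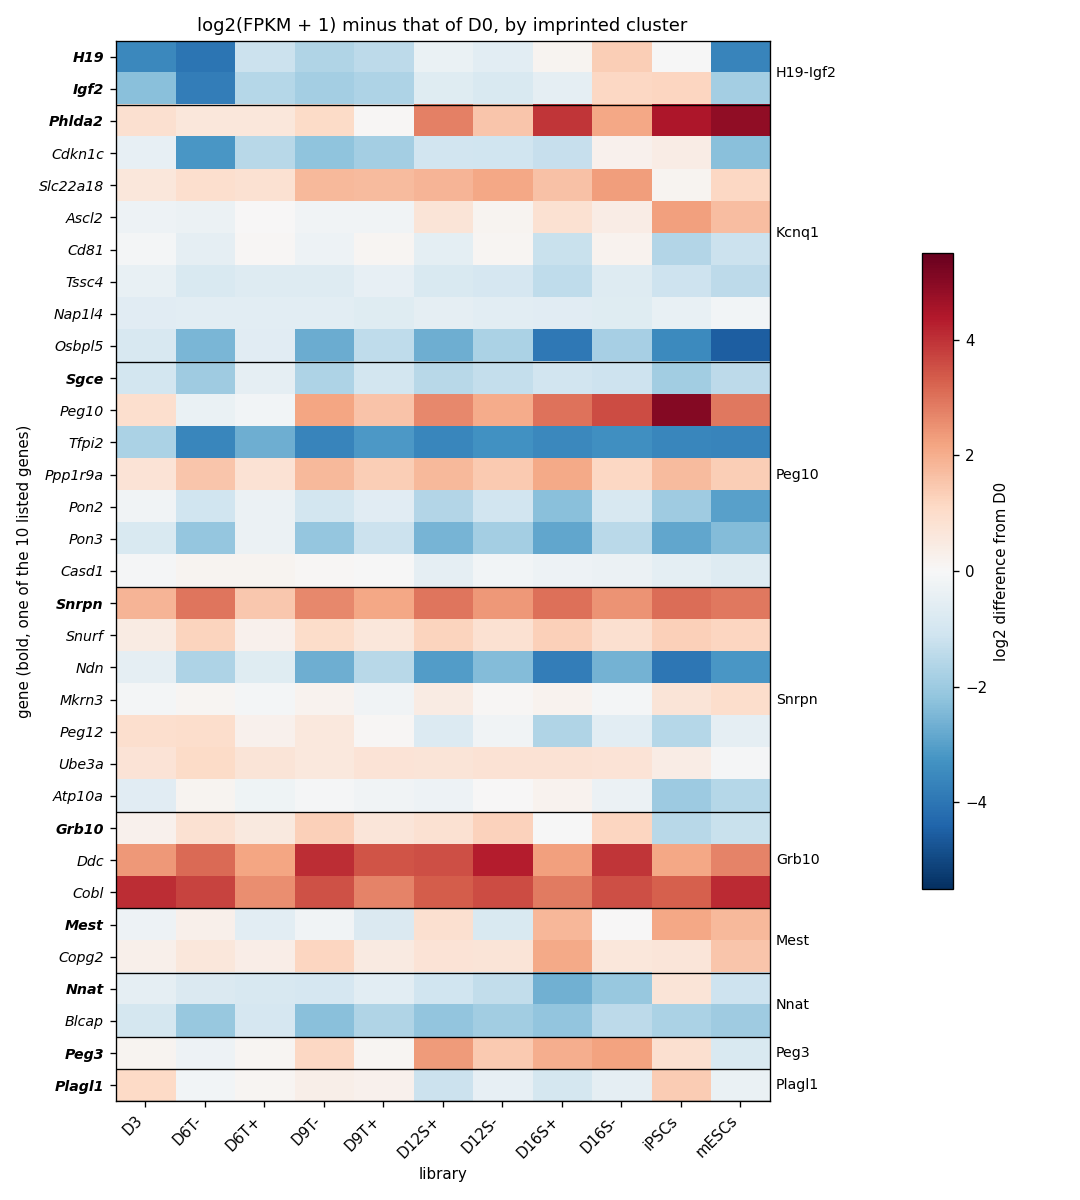
Difference in log2(FPKM + 1) from D0 (colour) in 11 libraries (columns) for the 10 genes (bold) and the 23 neighbours that reached 1 FPKM (rows), in blocks by imprinted cluster. Within the Peg10 block Sgce is below and Peg10 above D0 in iPSCs, and within the Snrpn block Snrpn is above and Ndn below.

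A further 29 imprinted genes outside these clusters were counted with the neighbours. Whether a gene of either list is imprinted in these cells was not measured. Of the 48 genes of both lists that reached 1 FPKM, 9 were past 4-fold higher and 9 lower in iPSCs than in D0, where 6.19% and 9.2% of all genes were, with a median log2 difference of -0.43 against 0.03 over all genes. The highest against D0 were Peg10 (by 5.06), Gab1 (by 4.02, from 5.02 to 96.7 FPKM), an adaptor of receptor signalling, and Sfmbt2 (by 3.44, from 0.197 to 11.9 FPKM), a Polycomb protein of the placenta. The lowest against D0 were Dcn (by -6.71, from 117 to 0.128 FPKM), a matrix proteoglycan, Axl (by -4.80, from 226 to 7.15 FPKM), a receptor tyrosine kinase, and Ndn (by -3.98). Between iPSCs and mESCs, Cdkn1c (2.71) and Peg10 (2.14) were past 4-fold higher in iPSCs and none was lower, where 1.23% and 0.952% of all genes were. At 2-fold, 9 of the 48 were higher and 3 were lower in iPSCs, where 6.79% and 7.41% of all genes were.

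Between sorted fractions the 48 genes were counted at 2-fold. In D6T- against D6T+, 11 were lower and 1 was higher, where 9.47% and 2.93% of all genes were. In D9T- against D9T+, 5 were lower and none was higher, where 6.45% and 1.81% of all genes were. In D12S+ against D12S-, 2 were lower and 1 was higher, where 3.03% and 4.79% were, and in D16S+ against D16S-, 13 were lower and 4 higher, where 15.2% and 11.8% were. More genes were lower than higher over all genes too on days 6, 9 and 16.

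The IGF pathway, in which Igf2 is a ligand, was followed in 15 genes, all above 1 FPKM in some library. Igf1, the other growth factor, was at 1.76 FPKM in D0 and at most 0.596 from day 16 onwards. Igf1r, the signalling receptor, was between 4.15 FPKM in D16S+ and 16.3 in D9T+. Igf2r, the maternally expressed receptor that removes Igf2 from the cell surface, was at 167 FPKM in D0, 207 in D6T+, 86.2 in D6T-, 35.1 in D16S+, 70.0 in D16S-, 31.4 in iPSCs and 40.5 in mESCs. It was thus lower in iPSCs than in D0 by -2.38, while Igf2 was higher by 1.19, short of 4-fold. Igf2bp1, an RNA-binding protein of Igf2 transcripts, was at 8.43 FPKM in D0, 57.9 in D16S+, 13.3 in D16S-, 108 in iPSCs and 63.8 in mESCs. Of the 15 genes, 2 were past 4-fold higher (Igfbp2 and Igf2bp1) and 6 lower in iPSCs than in D0, where 6.19% and 9.2% of all genes were, and their median log2 difference was -0.92.

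Factors that keep imprints through early development, 15 genes of which 14 reached 1 FPKM, included 5 that were past 4-fold higher and none lower in iPSCs than in D0, where 6.19% and 9.2% of all genes were. Beside Zfp57 (by 4.11), these were Dppa3 (by 4.24), which shields methylation in the zygote, Hells (by 2.55), Trim28 (by 2.19), the partner of ZFP57, and Uhrf1 (by 2.11), which recruits Dnmt1. Dppa3 was listed at 0 in D0 and D3 and stood at 85.0 FPKM in D16S+, 17.9 in iPSCs and 5.53 in mESCs. In D16S+ against D16S-, 9 of the 14 were past 2-fold higher and none was lower, where 11.8% and 15.2% of all genes were. Ctcf, which binds the sites printed above, was between 11.2 FPKM in D16S- and 29.9 in iPSCs. Between iPSCs and mESCs none of the 14 was past 4-fold in either direction.

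Among the 45 pairs of the 10 genes, H19 and Igf2 had the highest Spearman rho (0.93), and by Pearson r they stood beside Mest and Phlda2 (0.89 and 0.90). Mest and Phlda2, which lie on different chromosomes, had a rho of 0.70, and an r of 0.82 without D16S+ and iPSCs. Plagl1 and Nnat had an r of 0.76 and a rho of 0.80. Over 8803 genes with at least 10 FPKM in a library, the genes most like H19 outside the 10 were Tor1aip2 (r of 0.92), Gpr107 (0.90) and Ube2l6 (0.89), and Igf2 ranked 3. The genes most like Igf2 were A930015D03Rik (0.96), Cxcl16 (0.96) and Krt18 (0.93), and H19 ranked 6 among them. Since r compares the course and not its size, some of these genes changed little. Tor1aip2 lay between 17.9 FPKM in D6T- and 28.6 in D16S-, and Gpr107 between 19.1 in mESCs and 40.8 in D16S-. A930015D03Rik lay between 3.69 FPKM in D6T- and 11.6 in iPSCs. Krt18, a keratin of simple epithelium, was at 56.5 FPKM in D0, 6.21 in D6T-, 664 in D16S-, 711 in iPSCs and 36.5 in mESCs. With so many genes compared over 12 libraries of a single course, such correlations are a description only.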

How the data were processed

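Messenger RNA of 12 libraries, 1 per condition, was analysed from the deposited table of FPKM. The authors mapped reads to mm9 with STAR, removed reads with more than 2 mismatches or more than 1 locus, and estimated the deposited FPKM with cuffdiff, which also gave each value an interval. Tool versions, annotation and library scaling were not given in the sources used here. Per the labels the kit was stranded, while the study's methods name a TruSeq kit without that word. Removal of multi-locus reads lowers genes with near-identical copies. The depth of each library in fragments is unknown, and its depth relative to D0 was read from the steps of values under 0.5 FPKM.

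Columns were matched to libraries by day and sorting marker, with "pos" and "neg" read as its sign. A further 12 status columns were not used. Values were analysed as log2(FPKM + 1), a scale that understates changes of low genes, over genes with at least 1 FPKM in a library (14178). With 1 library per condition no test was made, and genes past 2-fold or 4-fold were counted in 11 comparisons. Alternatives were a pseudocount of 0.1, the other fold, scaling to equal total FPKM or by the median of ratios, and no filter or one at 5 FPKM. The 10 genes, the other lists and the comparisons were chosen with earlier results of these data known. Outside the 10 genes, named genes were neighbours that reached 1 FPKM, the 3 largest differences per direction past 4-fold between D0 and iPSCs and between iPSCs and mESCs, genes of the pathway and marker lists, and the 3 genes most like H19 and Igf2. Positions are from GENCODE M1 (mm9). Functions were tested on simulated data. Python 3.11.15, numpy 2.4.6, pandas 2.3.3 and matplotlib 3.10.9 were used.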

Additional observations from a re-analysis of the deposited data

Results flagged for a closer look

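Grb10 was flagged because its difference between sorted fractions pointed one way on both Thy-1 days and the other way on both SSEA-1 days. The log2 differences were 0.31 on day 6 and 0.67 on day 9 (Thy-1- minus Thy-1+), and -0.43 on day 12 and -1.20 on day 16 (SSEA-1+ minus SSEA-1-). The mean of the SSEA-1 days minus that of the Thy-1 days was -1.31. The difference was not tested, each value rests on 1 library per fraction, and the sorting marker and the day cannot be told apart.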

How the results depend on the processing

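The counts of genes past the fold moved mainly with the fold itself. At 4-fold in place of 2-fold the count was 2 in D3 against D0 (5 at 2-fold), 2 between the fractions of day 6 (4), 0 on days 9 (2), 12 (2) and 16 (5), and 2 in iPSCs against D16S+ (5). At 2-fold in place of 4-fold it was 8 in D16S- against D0 (4), 7 in iPSCs against D0 (3), 8 in mESCs against D0 (3) and 5 in iPSCs against mESCs (2). Scaling by the median of ratios left 1 of 2 on day 9. In all, 55 of 66 counts stayed within 1.5 times the value given, and 324 of 330 log2 differences moved by less than 0.5. The 6 others were those of Phlda2 and Plagl1 with a pseudocount of 0.1, which made each of them larger. Scaling to equal total FPKM moved the median over all genes from 0.05 to 0.35 in D16S+ against D0, and turned the sign of 3 differences that were short of the fold (Grb10 in D16S+ against D0, H19 in iPSCs against D0, Snrpn in iPSCs against D16S+). Without iPSCs and mESCs, r was 0.96 for H19 and Igf2, 0.79 for Mest and Phlda2, 0.63 for Plagl1 and Nnat and -0.40 for Grb10 and Mest. Single calls near the fold also changed. With equal total FPKM, Nnat in D16S- against D0 (-1.80) and Sgce in D3 against D0 (-0.76) were lost. With that scaling, Mest in D16S+ against D0 (2.17) and Sgce in iPSCs against D16S+ (-1.03) were gained. With a pseudocount of 0.1, Phlda2 in D3 against D0 (1.30) and Sgce in iPSCs against D0 (-2.12) were gained. The same pseudocount added Plagl1 in D12S+ against D12S- (-1.28) and in iPSCs against mESCs (2.16). No paired analysis was possible because no condition had a second library, and fractions of the same day were compared as values only. Without fragment counts, the counting error of low values such as those of Plagl1 and of Phlda2 in D0 is unknown.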
